A study of Mus musculus with 7 samples.

Results

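Matrix proteases and their natural inhibitors were followed in skeletal cells sorted from the femurs of mice on a high fat or a low fat diet. The 10 genes, taken by symbol from the table of 42687 gene identifiers, were the inhibitors Timp1, Timp2 and Timp3, the metalloproteinases Mmp2, Mmp3, Mmp13 and Mmp14, and the secreted proteases Adamts1, Adamts4 and Adamts5. All 10 were found and all 10 passed the filter on low counts. The cells were CD24 and CD29 double positive, were named skeletal stem cells by the submitters, and were sorted from digested bone of C57BL/6 mice. The HFD group (3 libraries, numbered 2 to 4) had eaten food with 60% fat and the LFD group (4 libraries, numbered 1 to 4) food with 10% fat, in each case for 4 weeks from an age of 3 months. Nothing in the labels says whether a library held cells of 1 animal or of several, so a p-value here sets the diets against the scatter of single libraries, some of which may come from handling rather than from animals.

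Matrix metalloproteinases are zinc enzymes that cut collagens and other matrix proteins. They are made as inactive precursors, and tissue inhibitors of metalloproteinases (TIMPs) block the active enzyme by binding to it. On the cell surface Mmp14 and Timp2 together bring the precursor of Mmp2 to activation, so Timp2 has a part in activation as well as in inhibition. Mmp13 is the main collagenase of growing bone and of hypertrophic cartilage in the mouse, and Adamts4 and Adamts5 are the aggrecanases that cut the cartilage proteoglycan aggrecan.

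Total counts ran from 17391613 to 24681838 per library. The libraries of the 2 diets also differed in sex-linked transcripts. Xist had 0 counts in each HFD library and 257 to 526 counts in each LFD library, while 4 Y-linked genes together had 2494 to 3405 counts in each HFD library and 1 to 5 in each LFD library. Diet and the sex these transcripts mark therefore cannot be told apart in any comparison here. The sort markers were present, with Cd24a at 774 to 3004 CPM (counts per 1e+06 of the TMM-scaled total) in HFD and 1524 to 4852 CPM in LFD, and Itgb1, which encodes CD29, at 380 to 497 CPM in HFD and 368 to 488 CPM in LFD. Red cell transcripts (8 genes of a list of 9, Ahsp not analysed here) took 2.56% to 10.3% of the counts in HFD and 10.2% to 14.0% in LFD. In such bulk samples fewer cells of a type and less RNA per cell cannot be told apart.

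Promoter sequences of RefSeq on the GRCm38.p6 build, from 250 bases before to 50 after the annotated start, were at hand for 7 of the 10 genes, and 4 are printed here because they belong to genes the results turn on. Timp1 and Mmp14 were the genes whose diet groups did not overlap, and Mmp13 and Mmp3 are metalloproteinase genes of chromosome 9 that varied most between libraries among the metalloproteinases of the 10. All are written 5′ to 3′ on the strand of the gene. Capitals mark matches on either strand to 5 short motifs. The AP-1 motif searched was TGACTCA. For RUNX factors it was TGTGGTT. For ETS factors the search used CCGGAAG. The TATA box was taken as TATAAA. The GC box was taken as GGGCGG. No match overlapped one of another motif.
Timp1, chrX:20869916-20870215, plus strand: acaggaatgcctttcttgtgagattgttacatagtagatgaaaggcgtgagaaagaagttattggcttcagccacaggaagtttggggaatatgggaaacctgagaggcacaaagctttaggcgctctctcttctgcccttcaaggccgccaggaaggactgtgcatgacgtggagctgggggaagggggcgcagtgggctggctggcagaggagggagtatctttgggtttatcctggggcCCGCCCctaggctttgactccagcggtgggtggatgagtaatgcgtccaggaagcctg
Mmp14, chr14:54431348-54431647, plus strand: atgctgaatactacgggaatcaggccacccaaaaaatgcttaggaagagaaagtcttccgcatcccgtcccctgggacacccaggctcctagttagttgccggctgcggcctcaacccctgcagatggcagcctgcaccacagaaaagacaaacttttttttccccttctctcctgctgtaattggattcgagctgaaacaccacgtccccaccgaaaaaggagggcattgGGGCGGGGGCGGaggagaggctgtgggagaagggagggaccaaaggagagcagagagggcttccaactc
Mmp13, chr9:7272264-7272563, plus strand: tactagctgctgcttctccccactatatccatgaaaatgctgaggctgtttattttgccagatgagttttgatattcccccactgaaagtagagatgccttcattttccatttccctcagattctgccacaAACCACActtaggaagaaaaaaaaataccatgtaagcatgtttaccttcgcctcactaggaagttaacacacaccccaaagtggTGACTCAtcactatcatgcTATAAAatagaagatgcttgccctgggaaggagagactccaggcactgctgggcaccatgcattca
Mmp3, chr9:7445572-7445871, plus strand: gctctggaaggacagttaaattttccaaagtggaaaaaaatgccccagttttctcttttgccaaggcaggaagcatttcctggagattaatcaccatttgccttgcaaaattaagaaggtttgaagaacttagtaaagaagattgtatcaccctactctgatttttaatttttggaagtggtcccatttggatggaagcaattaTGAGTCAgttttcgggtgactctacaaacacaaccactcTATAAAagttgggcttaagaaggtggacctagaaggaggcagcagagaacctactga

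The Mmp13 and Mmp3 windows shared a layout that the Timp1 and Mmp14 windows lacked. Mmp13 held an AP-1 match that began at position -35 from the start and a TATA box at -16, with a RUNX match at -119, and Mmp3 held an AP-1 match at -46 and a TATA box at -7. Among the 32851 promoters given by RefSeq, 5.20% held the AP-1 letters, 5.27% the RUNX letters and 13.6% the TATA box letters. Timp1 held a GC box at -8, and Mmp14 held a pair of adjoining GC boxes at -19 and -13. Those letters were present in 35.7% of all promoters, and the ETS letters, in 8.86% of them, were in none of the 7 windows. These matches describe letters and say nothing of binding.

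Compared per length, the genes fell into a wide range of levels. Values are RPKM, reads per kilobase of merged exons per unit of the same CPM scale, as mean ± SD with n = 3 for HFD and n = 4 for LFD. Mmp13 was the highest, at 384 ± 176 RPKM in HFD and 235 ± 115 RPKM in LFD. Timp2 followed at 222 ± 43.7 RPKM in HFD and 181 ± 44.6 RPKM in LFD, and the SD intervals of Mmp13 and Timp2 overlapped in each diet. Timp2 stood clear of the next gene in every library.

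The middle of the order held Timp1, Mmp2 and Timp3. Timp1 measured 112 ± 18.1 RPKM in HFD and 55.7 ± 9.01 RPKM in LFD, Mmp2 measured 105 ± 34.3 RPKM in HFD and 64.4 ± 21.3 RPKM in LFD, and Timp3 measured 64.5 ± 19.4 RPKM in HFD and 41.8 ± 18.9 RPKM in LFD. Neighbours among these were not separated, since their SD intervals overlapped in each diet. Timp1 ranked 3 in HFD and 4 in LFD. Mmp14, the membrane-bound collagenase, lay below all of these, at 26.2 ± 1.35 RPKM in HFD and 20.8 ± 1.79 RPKM in LFD, and Timp3 exceeded it in each of the 7 libraries. Per length of the longest transcript instead of merged exons the order of these genes shifted. In HFD, Mmp2 ranked 3, Timp1 4 and Timp3 5, and in LFD, Timp3 ranked 3, Mmp2 4 and Timp1 5.

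Adamts1, Mmp3 and the aggrecanases had the lowest means. Adamts1 measured 15.3 ± 3.52 RPKM in HFD and 17.002 ± 4.36 RPKM in LFD. Mmp3, which activates the precursors of other metalloproteinases, measured 8.63 ± 6.98 RPKM in HFD and 7.41 ± 3.36 RPKM in LFD. Adamts5 measured 1.60 ± 0.199 RPKM in HFD and 1.87 ± 0.483 RPKM in LFD, and Adamts4 measured 1.78 ± 1.34 RPKM in HFD and 1.37 ± 1.22 RPKM in LFD. The aggrecanases were not separated from each other in either diet. SD intervals also overlapped for Mmp14 and Adamts1 in LFD. In HFD they overlapped for Adamts1 and Mmp3 and for Mmp3 and Adamts4, so these neighbours were not separated there.

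**Figure D1:**
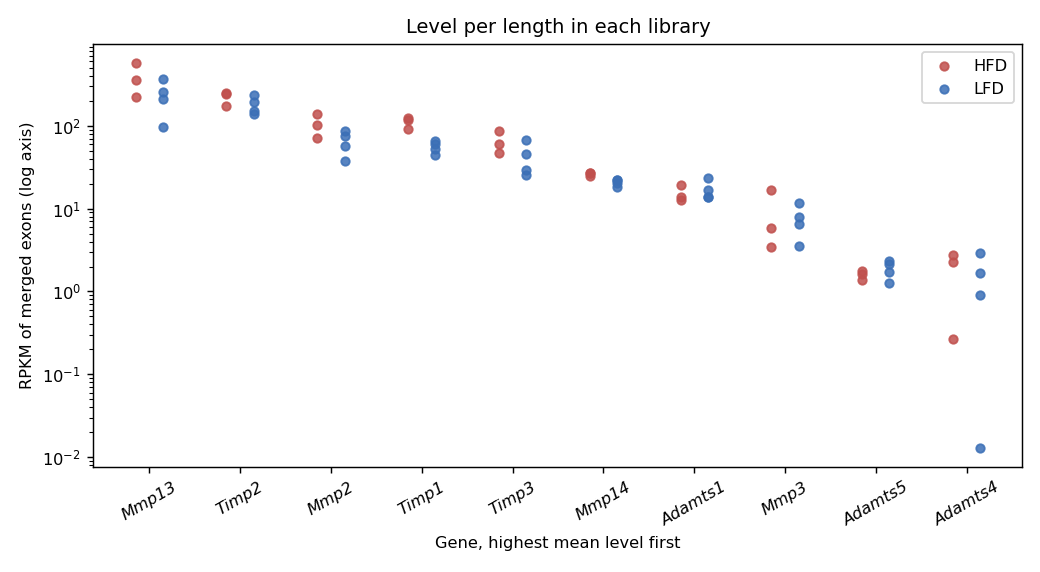
Level of each gene in RPKM of merged exons (vertical log axis), with 1 point per library, 3 HFD libraries on the left and 4 LFD libraries on the right of each gene. Mmp13 and Timp2 lie at the top with means over all 7 libraries of 299 and 199 RPKM, and Adamts5 and Adamts4 at the bottom with 1.75 and 1.55 RPKM.

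The diet comparison asked which transcripts of the sorted cells differed between mice on the high fat and the low fat diet. None of the 10 genes passed an adjusted p of 0.05 in the quasi-likelihood test of edgeR, in a fit over 14304 genes of which 5 (0.0350%) passed. Of those 5, 4 were higher and 1 was lower in HFD. With the sex-linked genes left out of the adjustment 0 genes passed. At an unadjusted p under 0.05 there was 1, Timp1, where 7.53% of all genes tested had such a p (5.18% higher and 2.35% lower in HFD). DESeq2 called 1 of the 10, again Timp1, against 2.15% of the genes to which it gave an adjusted p, and limma-voom with sample quality weights called 0 of the 10 against 0.182%. Fold changes were above 0 for 8 of the 10 genes, against 51.5% of all genes tested, and their median was 0.36 on the log2 scale (0.56 without HFD 4 and 0.24 with the red cell share as a covariate), against 0.02 for all. Diet groups did not overlap for 2 of the 10, with HFD above LFD in each, where 8.40% of all genes had HFD above and 3.47% had HFD below.

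**Figure D2:**
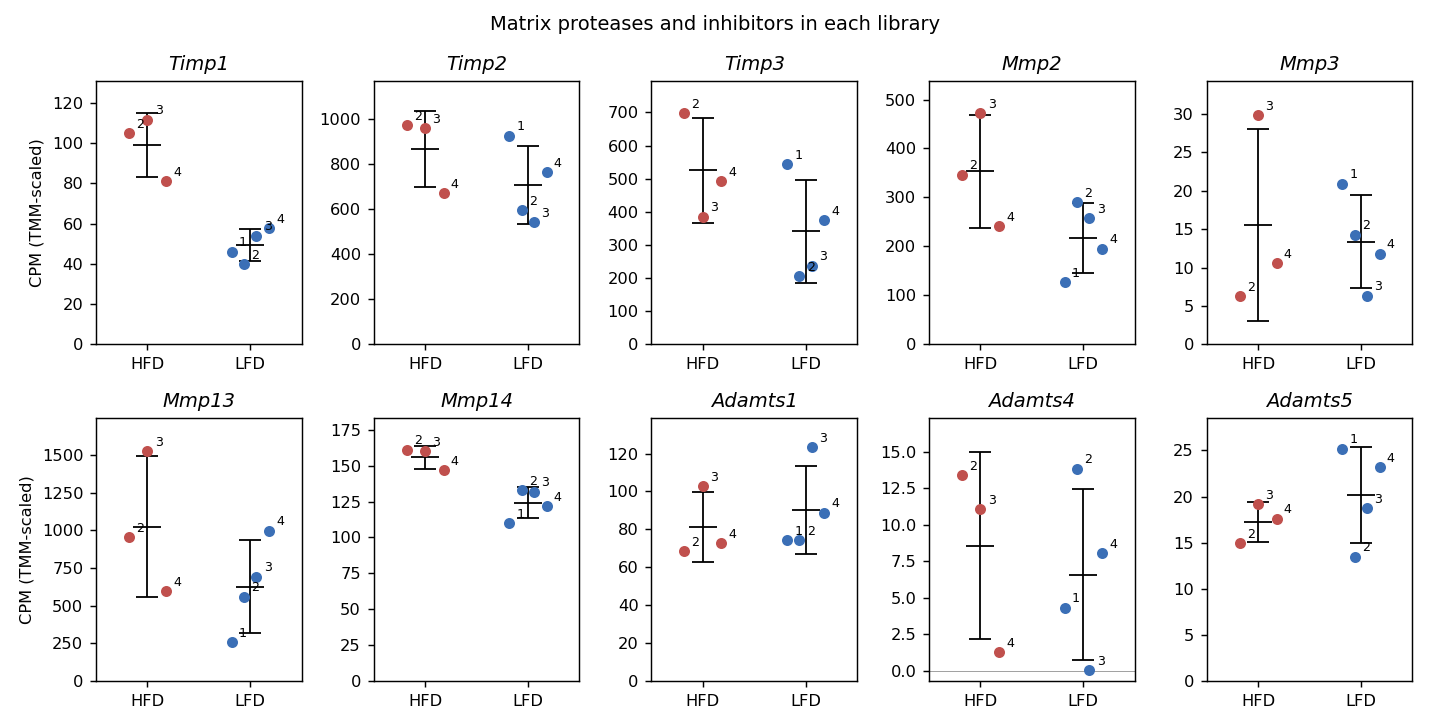
CPM of each of the 10 genes in each library (linear vertical axes that include 0, 1 panel per gene), with HFD libraries on the left and LFD libraries on the right, numbered as in the labels; black bars give the mean ± SD. Timp1 and Mmp14 are the panels in which every HFD point lies above every LFD point.

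Timp1 is a secreted inhibitor of most metalloproteinases (ENSMUSG00000001131, chromosome X, 20870166 to 20874735, plus strand, mm10). It measured 105, 112 and 81.2 CPM in HFD 2, HFD 3 and HFD 4, against 46.1, 39.9, 54.0 and 57.8 CPM in LFD 1, LFD 2, LFD 3 and LFD 4. Every HFD library lay above every LFD library, and HFD 4 was the lowest of its group. Means were 99.3 ± 16.04 CPM in HFD (SD, n = 3) and 49.4 ± 8.001 CPM in LFD (SD, n = 4). The log2 fold change was 1.01 ± 0.21 (SE), with an unadjusted p of 0.00117 and an adjusted p of 0.236 by edgeR's quasi-likelihood test, and the gene ranked 70th of 14304 by p. DESeq2 gave a log2 fold change of 0.99 ± 0.23 and adjusted p = 0.00236, a call that was lost without HFD 2 (adjusted p = 0.0707) or without HFD 3 (adjusted p = 0.109). Timp1 is X-linked, and the HFD libraries were those without Xist. Overlapping it on the opposite strand is Syn1, which shares no exon with it.

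Mmp14 (ENSMUSG00000000957, chromosome 14, 54431612 to 54445364, plus strand) was the steadiest of the 10 genes within each diet. It measured 161, 160 and 147 CPM in HFD 2, HFD 3 and HFD 4, against 110, 133, 132 and 122 CPM in LFD 1, LFD 2, LFD 3 and LFD 4. The lowest HFD library lay above the highest LFD library. Means were 156 ± 8.07 CPM in HFD and 124 ± 10.6 CPM in LFD, the coefficient of variation was 5.17% in HFD and 8.58% in LFD, and the log2 fold change was 0.33 ± 0.17 with an adjusted p of 0.692 by edgeR.

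Mmp2, the gelatinase that Mmp14 activates (chromosome 8, 92827291 to 92853420), measured 346, 472 and 241 CPM in HFD 2, HFD 3 and HFD 4. In LFD 1, LFD 2, LFD 3 and LFD 4 it measured 127, 290, 257 and 195 CPM. The groups overlapped, because HFD 4 lay below LFD 2 and LFD 3. The log2 fold change was 0.70 ± 0.35, with an adjusted p of 0.685 by edgeR, and 0.45 without HFD 3.

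Mmp13 (chromosome 9, 7272514 to 7283331, plus strand) ranged 5.94-fold over the 7 libraries. It measured 953, 1527 and 597 CPM in HFD 2, HFD 3 and HFD 4, against 257, 560, 693 and 998 CPM in LFD 1, LFD 2, LFD 3 and LFD 4. LFD 4 exceeded HFD 2 and HFD 4, so the groups overlapped. Its log2 fold change was 0.71 ± 0.49 (adjusted p = 0.720 by edgeR), and it was 0.32 without HFD 3 and 0.46 without LFD 1.

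The collagen-cutting enzymes and the collagens they cut did not all follow each other. LFD 1 had the lowest value of the 7 libraries for Mmp13, Mmp2 and Mmp14, and also for the bone collagen gene Col1a1 (4130 CPM, where the others had 8122 to 27691 CPM). The cartilage collagen gene Col2a1 was lowest in LFD 1 as well (10209 CPM, where the others had 21649 to 39181 CPM). HFD 3 had the highest value for Mmp13, Mmp2 and Col1a1. Col10a1, the collagen of hypertrophic cartilage where Mmp13 is also made, stood the other way round, with its highest value in LFD 1 (872 CPM) and its lowest in LFD 3 (90.0 CPM). Col1a1, Col2a1 and Col10a1 were set beside the proteases after their values were seen. Summed markers of osteoblasts (5 genes) ran from 22243 to 34292 CPM in HFD and from 8457 to 25768 CPM in LFD, with the lowest value in LFD 1. Summed chondrocyte markers (6 genes) were also lowest in LFD 1, at 13652 CPM, where the others had 25331 to 47264 CPM. What part the mix of cells has in the Mmp13 values was not tested.

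**Figure D3:**
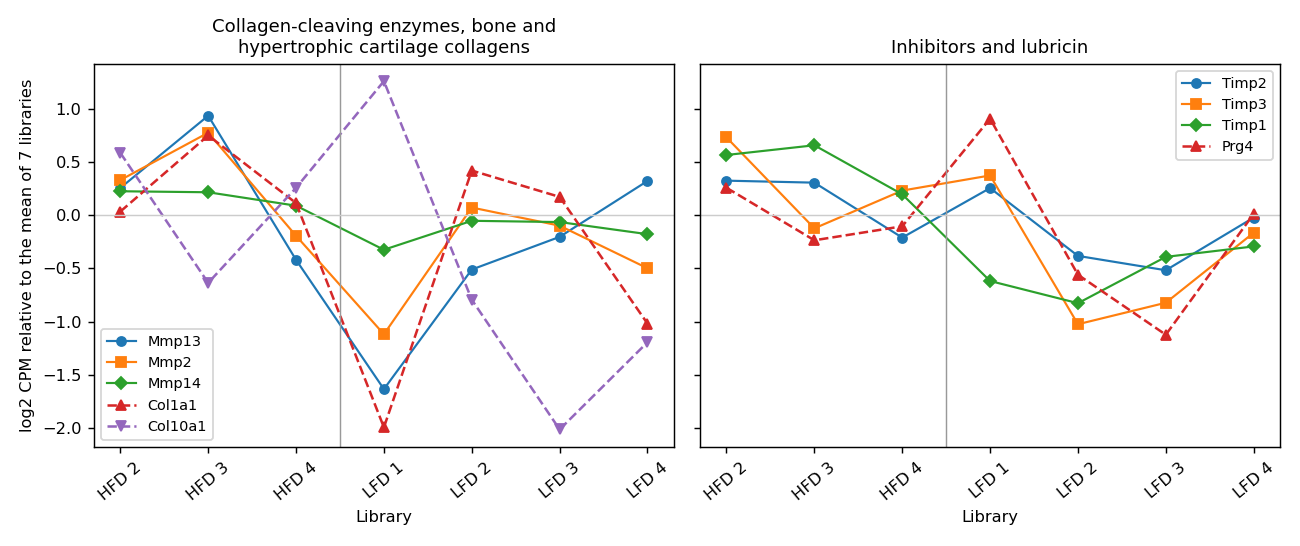
CPM of single genes in each library, as log2 relative to the mean of the 7 libraries (vertical axis), with HFD libraries left of the grey line and LFD libraries right of it; solid lines are the 10 genes, dashed lines other genes, and lines only join points of 1 gene, since libraries have no order. Mmp13, Mmp2 and Mmp14 are lowest in LFD 1 where Col1a1 is also lowest and Col10a1 is highest, and Timp2 and Timp3 are at their LFD maximum in LFD 1, as Prg4 is.

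Mmp3 (chromosome 9, 7445822 to 7455975) had low and scattered values. It measured 6.22, 29.9 and 10.6 CPM in HFD 2, HFD 3 and HFD 4, against 21.0, 14.3, 6.35 and 11.8 CPM in LFD 1, LFD 2, LFD 3 and LFD 4. HFD libraries held the lowest as well as the highest value. The log2 fold change was 0.22 ± 0.59 (adjusted p = 0.942 by edgeR), and its sign turned without HFD 3 (-0.66) and without LFD 3 (-0.03).

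Timp2 (chromosome 11, 118301069 to 118355740, minus strand) was the most abundant inhibitor. It measured 970, 958 and 670 CPM in HFD 2, HFD 3 and HFD 4, against 925, 594, 541 and 763 CPM in LFD 1, LFD 2, LFD 3 and LFD 4. The groups overlapped widely. Its log2 fold change was 0.30 ± 0.29 with an adjusted p of 0.801 by edgeR, and with the red cell share as a covariate it came to -0.0041. Leaving out 1 library gave 0.19 (without LFD 3) to 0.46 (without LFD 1).

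Timp3, the inhibitor that binds to the matrix and also blocks aggrecanases (chromosome 10, 86300372 to 86349506, plus strand), measured 697, 385 and 493 CPM in HFD 2, HFD 3 and HFD 4. In LFD 1, LFD 2, LFD 3 and LFD 4 it measured 544, 206, 237 and 374 CPM. LFD 1 lay above HFD 3 and HFD 4, so the groups overlapped. The log2 fold change was 0.62 ± 0.39 with an adjusted p of 0.704 by edgeR, and 0.16 with the red cell share as a covariate. It was 0.36 without HFD 2 and 0.96 without LFD 1. Its exons overlap those of Syn3 on the other strand, which had 53 counts over the 7 libraries.

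Within the low fat diet Timp2 and Timp3 followed Prg4, the gene of the joint lubricant lubricin, which was chosen for this after its values were seen. Prg4 measured 8260, 5866 and 6425 CPM in HFD 2, HFD 3 and HFD 4, against 12960, 4686, 3169 and 6967 CPM in LFD 1, LFD 2, LFD 3 and LFD 4. LFD 1 and then LFD 4 were the highest LFD libraries for Prg4, Timp2 and Timp3. Adamts5 had the same highest libraries, as did Dcn, the gene of the small proteoglycan decorin (5778 and 5595 CPM). Timp1 did not have this order, with LFD 4 and then LFD 3 as its highest LFD libraries. The Prg4 values of HFD and LFD libraries overlapped.

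Among the secreted proteases with thrombospondin repeats, Adamts1 (chromosome 16, 85793827 to 85803113, minus strand) measured 68.4, 103 and 72.7 CPM in HFD 2, HFD 3 and HFD 4. In LFD 1, LFD 2, LFD 3 and LFD 4 it measured 74.2, 74.3, 123 and 88.8 CPM. The groups overlapped. Adamts1 cuts aggrecan and versican, and its log2 fold change was -0.15 ± 0.26 (adjusted p = 0.904 by edgeR). The sign turned without LFD 3 (0.04) and with limma-voom (0.06).

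Adamts5 (chromosome 16, 85856173 to 85901828, minus strand), the main aggrecanase of mouse cartilage, measured 14.9, 19.2 and 17.6 CPM in HFD 2, HFD 3 and HFD 4. In LFD 1, LFD 2, LFD 3 and LFD 4 it measured 25.2, 13.5, 18.7 and 23.2 CPM. LFD 2 was below every HFD library, and LFD 1 and LFD 4 were above every HFD library. The log2 fold change was -0.23 ± 0.28, with an adjusted p of 0.863 by edgeR, and ran from -0.38 (without LFD 2) to -0.097 (without LFD 1) with 1 library left out.

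Adamts4 (chromosome 1, 171250421 to 171260637, plus strand) was found unevenly. It had 383, 229 and 27 counts in HFD 2, HFD 3 and HFD 4, which is 13.4, 11.1 and 1.29 CPM. In LFD 1, LFD 2, LFD 3 and LFD 4 it had 111, 221, 1 and 163 counts, which is 4.33, 13.8, 0.0623 and 8.06 CPM. High and low libraries were found in each diet. The log2 fold change of 0.39 ± 1.22 (adjusted p = 0.949 by edgeR) turned its sign without HFD 2 (-0.09) and without LFD 3 (-0.0083). Since the strand setting of the counting is not stated, the Adamts4 counts are uncertain.

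**Figure D4:**
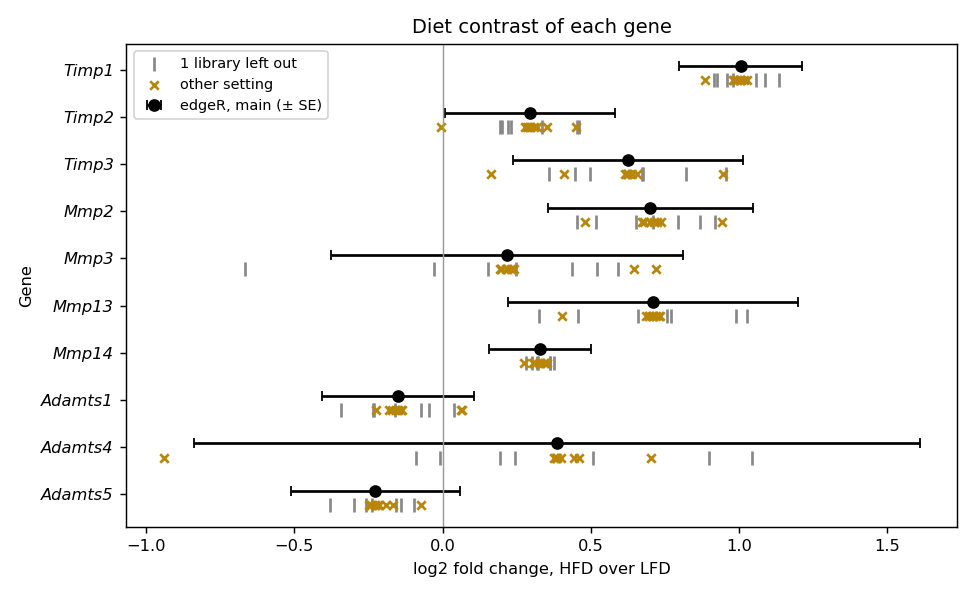
Log2 fold change of HFD over LFD for each of the 10 genes (horizontal axis), with the edgeR estimate ± SE as a black point and, below it, grey ticks for fits with 1 library left out and gold crosses for the other settings. Timp1 lies between 0.88 and 1.14 and Mmp14 between 0.28 and 0.38 in all 16 alternatives, whereas the marks of Timp2, Mmp3, Adamts1 and Adamts4 fall on each side of 0. The setting without sex-linked genes repeats the edgeR estimate, since it changed only the adjustment of p.

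Set against each other within a library, inhibitors and proteases held stable ranks in some pairs and not in others. These are log2 ratios of RPKM, given as a description without a test. Timp2 exceeded Mmp14, its partner on the cell surface, in 7 of 7 libraries, by 3.07 ± 0.23 in HFD and 3.09 ± 0.47 in LFD (SD). Timp2 also exceeded Mmp2 in 7 of 7 libraries, by 1.12 ± 0.26 in HFD and 1.53 ± 0.87 in LFD. LFD 1 was the highest of the 7 libraries in each of these ratios, at 3.68 for Timp2 to Mmp14 and 2.66 for Timp2 to Mmp2.

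Timp3 exceeded Adamts5 by 5.95, 4.73 and 5.22 in HFD 2, HFD 3 and HFD 4, against 4.84, 4.34, 4.07 and 4.42 in LFD 1, LFD 2, LFD 3 and LFD 4. The groups overlapped only through HFD 3 and LFD 1. Timp3 to Adamts4 ran from 4.36 to 7.82 in HFD and from 3.14 to 11.1 in LFD, the last of which rests on the 1 count of Adamts4 in LFD 3. Adamts4 exceeded Adamts5 in 3 of 7 libraries, HFD 2, HFD 3 and LFD 2.

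Timp1 exceeded Mmp3, one of the enzymes it binds, by 3.99 ± 1.09 in HFD and 3.02 ± 0.87 in LFD, and the groups overlapped. Timp1 exceeded Timp3 in 6 of 7 libraries, with LFD 1 as the exception (-0.36), but in 3 of 7 libraries (HFD 3, LFD 2 and LFD 3) per length of the longest transcript, so the order of this pair turns on the length used. Mmp13 exceeded Mmp14 in 7 of 7 libraries, by 3.77 ± 0.62 in HFD and 3.34 ± 0.75 in LFD.

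The makeup of the inhibitor pool and its ratio to the proteases were described without a test. Of the summed RPKM of the 3 inhibitors, Timp2 made up 55.0%, 58.7% and 53.1% in HFD 2, HFD 3 and HFD 4, against 66.7%, 68.5%, 60.7% and 63.8% in LFD 1, LFD 2, LFD 3 and LFD 4. Every HFD library was below every LFD library, also per length of the longest transcript (47.9% to 55.4% in HFD and 56.7% to 64.3% in LFD). The lower share is not a lower level of Timp2, since the shares are parts of 1 sum. Timp2 itself had a log2 fold change of 0.30 with overlapping groups, and Timp1 had 1.01. The Timp1 share was 26.1%, 30.03% and 28.2% in HFD 2, HFD 3 and HFD 4, against 14.6%, 20.2%, 26.6% and 21.2% in LFD 1, LFD 2, LFD 3 and LFD 4, so that LFD 3 reached just above HFD 2. The summed inhibitors stood to the summed proteases at 0.893, 0.538 and 0.950 in HFD 2, HFD 3 and HFD 4, and at 1.97, 0.648, 0.592 and 0.641 in LFD 1, LFD 2, LFD 3 and LFD 4. On merged exons LFD 1 was the 1 library with more inhibitor than protease transcript. On the longest transcript HFD 4 also passed 1, at 1.02, beside 2.07 in LFD 1. Mmp13 made up 65.5% to 73.4% of the summed protease RPKM in HFD and 53.1% to 78.0% in LFD.

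The other metalloproteinases had the larger differences of the family. Of 19 genes listed 10 were tested, and all 10 had a log2 fold change above 0 (median 1.13), against 51.5% of all genes tested. An unadjusted p under 0.05 was found for 2, against 7.53% of all, and 0 passed edgeR's adjusted threshold. Mmp8, the neutrophil collagenase, measured 239 ± 46.0 CPM in HFD and 27.7 ± 28.9 CPM in LFD (log2 fold change 3.11 ± 0.94, adjusted p = 0.427 by edgeR), and was called by DESeq2 (adjusted p = 0.0206). Mmp9, the gelatinase of neutrophil granules and osteoclasts, measured 591 ± 318 CPM in HFD and 83.8 ± 83.8 CPM in LFD (log2 fold change 2.82 ± 0.97), and Mmp25, a membrane-bound enzyme of neutrophils, 22.4 ± 4.88 CPM in HFD and 4.16 ± 3.96 CPM in LFD. Summed neutrophil markers ran from 8031 to 15696 CPM in HFD and from 911 to 5132 CPM in LFD, all 9 of 9 markers had a log2 fold change above 0, and none was at 0 in all libraries. Ptprc, the common marker of blood cells, measured 49.6 to 55.9 CPM in HFD and 0.117 to 24.8 CPM in LFD. The part of these cells in the Mmp8, Mmp9 and Mmp25 values was not tested. Mmp1a, Mmp1b, Mmp7, Mmp20 and Mmp21 had 0 counts in every library.

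Adam8, a membrane protease that neutrophils also carry, was the gene of its list with the smallest p. Of 9 membrane ADAM genes 8 were tested and 6 had a log2 fold change above 0 (median 0.58), against 51.5% of all genes tested. In edgeR 0 passed, and DESeq2 called 1, against 2.15% of the genes to which it gave an adjusted p. Adam8 measured 43.7 ± 5.83 CPM in HFD and 6.57 ± 5.74 CPM in LFD (log2 fold change 2.73 ± 0.61, adjusted p = 0.273 by edgeR and 0.00167 by DESeq2). Adam10, the most abundant of the list and a sheddase of surface receptors, measured 178 ± 65.3 CPM in HFD and 262 ± 95.0 CPM in LFD (log2 fold change -0.55 ± 0.40). Adam9 had a log2 fold change of 0.83 ± 0.46 and Adam33 of -0.95 ± 0.60, each with overlapping groups.

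Among 16 other ADAMTS genes 13 were tested, 8 had a log2 fold change above 0 and 5 below, where 51.5% of all genes tested were above 0. The median was 0.12, and it was -0.19 without HFD 3, 0.06 without LFD 2, 0.25 without HFD 2 and 0.73 without LFD 1. None passed in edgeR and DESeq2 called 1. That was Adamts2, which trims the amino end of procollagen, with 223, 252 and 127 CPM in HFD 2, HFD 3 and HFD 4, against 80.5, 93.0, 115 and 73.0 CPM in LFD 1, LFD 2, LFD 3 and LFD 4. Every HFD library lay above every LFD library, as for 8.40% of all genes tested (log2 fold change 1.15 ± 0.28, adjusted p = 0.290 by edgeR and 0.0277 by DESeq2). Adamts20 measured 0.872 ± 0.780 CPM in HFD and 5.93 ± 3.45 CPM in LFD, and Adamts3 7.78 ± 3.00 CPM in HFD and 1.60 ± 2.51 CPM in LFD, with adjusted p of 0.683 and 0.712 by edgeR. Adamts8, Adamts17 and Adamts20 passed the filter on low counts only because of their LFD libraries, and Adamts3 and Adamts6 only because of their HFD libraries. In HFD 2, HFD 3 and HFD 4 Adamts8 had 0, 53 and 0 counts. Adamts6 had 68, 0, 0 and 24 counts in LFD 1, LFD 2, LFD 3 and LFD 4. All of these genes are counted in the numbers above and below 0, so the filter had a part in those numbers.

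Of 8 other proteases that act on matrix, all 8 were tested and 6 had a log2 fold change above 0 (median 0.73), against 51.5% of all genes tested. An unadjusted p under 0.05 was found for 3, against 7.53% of all. All 3 are enzymes of stroma or bone. Fap, the fibroblast activation protein, measured 248, 243 and 189 CPM in HFD 2, HFD 3 and HFD 4, against 151, 120, 113 and 141 CPM in LFD 1, LFD 2, LFD 3 and LFD 4 (log2 fold change 0.79 ± 0.20, adjusted p = 0.318 by edgeR and 0.00857 by DESeq2). Ctsk, the collagen-cutting cathepsin of osteoclasts, measured 90.2 ± 21.7 CPM in HFD and 44.5 ± 10.2 CPM in LFD (log2 fold change 1.02 ± 0.26, adjusted p = 0.318 by edgeR and 0.0327 by DESeq2). Summed osteoclast markers, Ctsk among them, overlapped between the diets (122 to 215 CPM in HFD and 96.6 to 198 CPM in LFD), and Oscar had 0 counts in every library. Bmp1, which cuts the carboxyl end of procollagen, had a log2 fold change of 0.66 ± 0.19, and Ctsb, the most abundant of the list, -0.61 ± 0.39.

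All 6 inhibitors outside the 10 genes had a log2 fold change above 0 (median 0.97), against 51.5% of all genes tested. An unadjusted p under 0.05 was found for 1, against 7.53% of all. Without HFD 2 the median was 0.47 and 4 of the 6 were above 0. Serpine2, an inhibitor of serine proteases such as thrombin and urokinase, measured 2416, 1951 and 1530 CPM in HFD 2, HFD 3 and HFD 4, against 846, 514, 731 and 921 CPM in LFD 1, LFD 2, LFD 3 and LFD 4. Every HFD library lay above every LFD library, as for 8.40% of all genes tested (log2 fold change 1.38 ± 0.30, adjusted p = 0.266 by edgeR and 0.000250 by DESeq2). Cst3, a cathepsin inhibitor, measured 3999 ± 1165 CPM in HFD and 2435 ± 804 CPM in LFD. A2m, a trap for many proteases, measured 30.01 ± 21.6 CPM in HFD and 8.83 ± 9.33 CPM in LFD. With the red cell share as a covariate, 4 of the 6 were above 0 and the median was 0.34.

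Of 12 substrates 11 had a log2 fold change above 0 (median 0.44), where 51.5% of all genes tested did. With the red cell share as a covariate 8 of the 12 did (median 0.25). Acan, the aggrecan gene and the target of Adamts4 and Adamts5, measured 1773, 1423 and 1721 CPM in HFD 2, HFD 3 and HFD 4, against 930, 1120, 698 and 1294 CPM in LFD 1, LFD 2, LFD 3 and LFD 4. The groups did not overlap, with HFD above as for 8.40% of all genes tested (log2 fold change 0.70 ± 0.29, adjusted p = 0.642 by edgeR and 0.185 by DESeq2). Bgn, an X-linked gene for the small proteoglycan biglycan, had a log2 fold change of 0.61 ± 0.26 with overlapping groups. Col1a2, for a chain of bone collagen, had 0.87 ± 0.53, and Col2a1, for the collagen of cartilage, had 0.41 ± 0.47. Summed chondrocyte markers, Acan and Col2a1 among them, overlapped, with 27072 to 47264 CPM in HFD and 13652 to 35834 CPM in LFD.

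For activation and clearance, 4 of 5 genes had a log2 fold change above 0 (median 0.38), against 51.5% of all genes tested. The median was 0.23 without HFD 2, 0.61 without HFD 4, 0.58 without LFD 1 and 0.077 with the red cell share as a covariate. Furin, the convertase that removes the propeptide of Mmp14, measured 119, 123 and 103 CPM in HFD 2, HFD 3 and HFD 4, against 90.2, 89.5, 73.3 and 61.3 CPM in LFD 1, LFD 2, LFD 3 and LFD 4. Every HFD library lay above every LFD library, as for Mmp14 itself and for 8.40% of all genes tested (log2 fold change 0.55 ± 0.20, adjusted p = 0.578 by edgeR). Pcsk6, another proprotein convertase, had a log2 fold change of 0.81 ± 0.52, and Bsg, whose surface protein basigin induces metalloproteinases in neighbouring cells, had -0.51 ± 0.36. Lrp1, the receptor that takes up Timp3, Mmp13 and Adamts5, measured 319 ± 63.7 CPM in HFD and 246 ± 85.7 CPM in LFD.

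Of 15 cytokines and receptors that act on protease genes, 15 had a log2 fold change above 0 (median 0.85), against 51.5% of all genes tested. An unadjusted p under 0.05 was found for 4, against 7.53% of all, and 0 passed in edgeR. With the red cell share as a covariate 11 were above 0 and the median was 0.34, and without LFD 2 the median was 0.53. Tnf, Il6 and Il1r2 passed the filter on low counts only because of their HFD libraries, so the filter largely set their sign. In LFD 1, LFD 2, LFD 3 and LFD 4 Tnf had 0, 0, 0 and 25 counts, Il6 had 0, 0, 28 and 9, and Il1r2 had 0, 39, 0 and 168. Oncostatin M (Osm), a cytokine known to induce Timp1 in fibroblasts and made by myeloid cells, measured 150, 110 and 60.1 CPM in HFD 2, HFD 3 and HFD 4, against 1.48, 3.76, 9.59 and 16.3 CPM in LFD 1, LFD 2, LFD 3 and LFD 4. Every HFD library lay above every LFD library, as for 8.40% of all genes tested (log2 fold change 3.78 ± 0.75, adjusted p = 0.231 by edgeR and 4.94e-05 by DESeq2). Lifr, a receptor that pairs with Il6st, measured 131 ± 13.5 CPM in HFD and 55.6 ± 15.8 CPM in LFD (log2 fold change 1.24 ± 0.25, adjusted p = 0.236 by edgeR and 0.00353 by DESeq2). Osmr, which with Il6st forms the main Osm receptor of the mouse, had a log2 fold change of 0.46, and Il6st had 0.19. Il1b had 2.76 ± 0.95. Summed markers of monocytes and macrophages ran from 1610 to 2104 CPM in HFD and from 146 to 794 CPM in LFD, beside the neutrophil values above, and their part in the Osm and Il1b values was not tested.

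Of 16 transcription factors that act on protease genes 12 had a log2 fold change above 0 (median 0.37), against 51.5% of all genes tested. An unadjusted p under 0.05 was found for 3, against 7.53% of all, and none was called by edgeR or DESeq2. The median was 0.24 without HFD 2 and 0.11 with the red cell share as a covariate. Fosl1, an AP-1 subunit, measured 15.035 ± 7.36 CPM in HFD and 4.09 ± 2.89 CPM in LFD, Ets1 measured 92.1 ± 19.3 CPM in HFD and 48.1 ± 14.6 CPM in LFD, and Cebpb measured 118 ± 11.3 CPM in HFD and 60.6 ± 31.0 CPM in LFD. The groups did not overlap for these 3, which were named for the smallest p. In the whole list the groups did not overlap for 4 of 16 genes, with HFD above, against 8.40% of all genes tested. Fos, the most abundant factor of the list and one that tissue digestion also induces, measured 5094 ± 232 CPM in HFD and 4200 ± 1309 CPM in LFD. Runx2, which drives Mmp13 in bone, measured 31.0 ± 7.29 CPM in HFD and 24.0 ± 7.73 CPM in LFD.

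**Figure D5:**
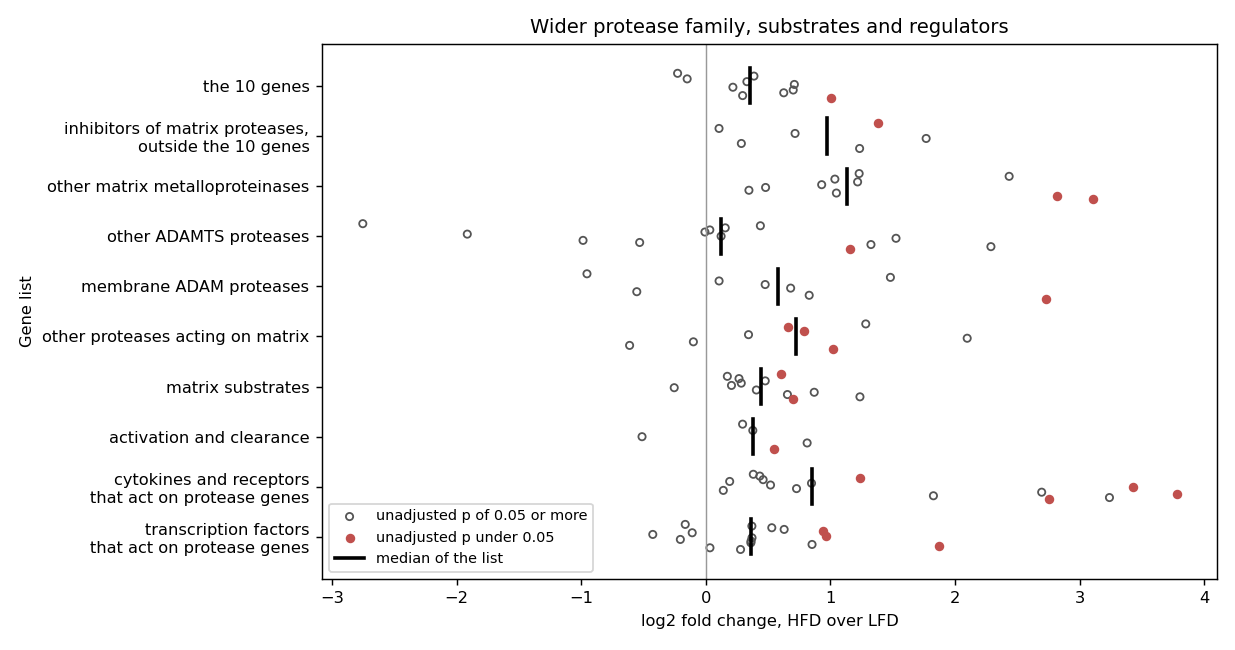
Log2 fold change of HFD over LFD for every tested gene of each list (horizontal axis, 1 point per gene, lists down the page), with filled points for an unadjusted p under 0.05 in edgeR and a black bar for the median of the list. Medians run from 0.12 for the other ADAMTS proteases to 1.13 for the other metalloproteinases, whose filled points are Mmp8 and Mmp9.

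For some further cell types the summed markers differed between the diet groups as well. Summed reticular stroma markers (5 genes) ran from 1413 to 2513 CPM in HFD and from 135 to 363 CPM in LFD, and tendon markers (3 genes) from 40.8 to 56.5 CPM in HFD and from 18.4 to 26.7 CPM in LFD. Pericyte and smooth muscle markers (4 genes) ran from 33.0 to 44.5 CPM in HFD and from 92.7 to 194 CPM in LFD, and muscle progenitor markers (3 genes) from 53.6 to 60.7 CPM in HFD and from 111 to 188 CPM in LFD. Single genes did not all follow these sums. The log2 fold change was above 0 for 5 of 5 reticular stroma genes and 2 of 3 tendon genes. It was above 0 for 1 of 3 tested pericyte and smooth muscle genes and 0 of 3 muscle progenitor genes, and edgeR called 0 in each list. For the fibroblast list, of which Prg4 gave most of the sum, the groups overlapped (5933 to 8324 CPM in HFD and 3267 to 13146 CPM in LFD), as they did for hypertrophic chondrocytes (929 to 1466 CPM in HFD and 683 to 1385 CPM in LFD). None of these lists had a member at 0 in all libraries. The groups also overlapped for the summed markers of osteocytes, endothelial cells, megakaryocytes, B cells, T and NK cells and Schwann cells. What part the cells of any of these lists have in the Timp1 and Mmp14 values was not tested.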

How the data were processed

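The deposited values are raw counts per Ensembl gene, whole numbers with 1 column per library, per the file headers. Per the labels' protocols, cDNA was made with SMART-Seq chemistry for small inputs and libraries with Nextera XT, and the submitters' processing notes name STAR 2.5.2b, HTSeq 0.11.2 and the mm10 build. For strand, annotation release and reads with several matches, the settings were not given in the sources used here. Symbols, positions and exon lengths came from GENCODE M21 on the same build, and 42250 of 42687 identifiers had a symbol.

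Titles gave the diet of each library. Every pair of libraries differed by more than counting noise (lowest chi-square 57.3 and highest 671 for each degree of freedom), so none looked like a repeat deposit of another. Technical scatter alone can exceed that noise, and the labels are what makes each library a sample. The diets were compared with edgeR 4.0.16 in R 4.3.3 (quasi-likelihood test, TMM, filterByExpr by group, robust fit, two-sided, Benjamini-Hochberg over all 14304 genes tested, threshold 0.05). The filter keeps a gene with enough counts in as many libraries as the smaller group holds. A gene scarce in 1 diet can therefore pass through the other diet alone, and its sign then follows from the filter. The SE is the absolute log2 fold change divided by the root of F. DESeq2 1.42.0 and limma 3.58.1 (voom with quality weights) were alternatives, beside RLE and upper-quartile scaling, other filters, each library left out, a replicate block, the red cell share as a covariate and the sex-linked genes left out of the adjustment. PCR without molecular identifiers means that counts are not independent molecules.

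The 10 genes, the wider lists and the marker lists were chosen with earlier results of these data known. All 10 genes are named, and of each wider list the 3 genes with the smallest p and the 1 with the highest CPM are named. Genes outside that rule (Lrp1, Osmr, Runx2, Prg4, Dcn, Col1a1, Col10a1, Tnf, Il6, Il1r2, Ctss, Adamts6, Adamts8, Adamts17 and the genes at 0) were chosen after their values were seen. Some genes that the analysis touched are not reported here.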

Additional observations from a re-analysis of the deposited data

How the results depend on the processing

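The number of genes called between the diets depended on the tool and the settings. It was 5 in the edgeR fit, 8 with no filter beyond 1 count, 0 with 10 counts in 4 libraries, 358 with DESeq2, 26 with limma-voom, 1 with the red cell share as a covariate, 0 with the sex-linked genes left out of the adjustment, and 1 to 6 with each library left out. Of the 10 genes 0 were called under every edgeR setting and by limma-voom, and 1 by DESeq2. Of 160 fold changes under the alternatives 150 kept their sign and their side of the threshold, 1 (Timp1 in DESeq2) passed it, and 9 turned their sign, none of them called. Leaving out the sex-linked genes changed only the adjustment of p, so the fold changes of that setting were those of the main fit and could not turn. Timp2 turned with the red cell share (-0.0041), as did Adamts1 (0.064) and Adamts4 (-0.94), and Adamts1 turned with limma-voom (0.064). With each library left out, log2 fold changes ran from -0.66 to 0.59 for Mmp3, from -0.34 to 0.039 for Adamts1 and from -0.090 to 1.04 for Adamts4. The cause was not tested. Over the 16 alternatives Timp1 kept a log2 fold change of 0.88 to 1.14, with adjusted p from 0.00236 (DESeq2) to 0.999 (red cell share). The deviations of same-numbered libraries had correlations of -0.095, 0.026 and -0.062, which cannot settle whether replicate numbers mark pairs. With replicate numbers as a block 0 genes were called and Timp1 had a log2 fold change of 0.98. Adamts4 had 1 count in LFD 3, too few for a precise level there.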

Other observations

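For each of the 10 genes, the genes with the most similar course over the 7 libraries were picked by Pearson's r of log2 CPM among 8982 genes with a mean of at least 8 CPM. With 7 libraries and so many candidates high values of r arise by selection, so they are a description without a test. Timp1 ran closest to Hspa5, the main chaperone of the endoplasmic reticulum (r = 0.992), then to Rab32 and Plcg2. Timp2 ran closest to Washc3, Hif1a and Hhipl2 (r from 0.993 to 0.997), and Timp3 to Tmem147, Lrpap1 and Ergic3 (0.975 to 0.977). Lrpap1 encodes the chaperone of the receptor family that includes Lrp1, which takes up Timp3.

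Mmp2 ran closest to H2-D1, and also to Bglap, the osteocalcin gene (r = 0.963). Mmp13 ran closest to Unc5b, Lcorl and H2-Q7 (0.962 to 0.974), and Mmp14 to Tada3, Ccn4 and Tpm1 (0.975 to 0.993). Mmp3 had Aamdc, Map3k20 and Bbs2 (0.897 to 0.951). Adamts1 had Rnf39, Pop5 and the histone deacetylase Hdac4 (0.967 to 0.971), Adamts4 had Asph, Ddx50 and Adck2 (0.977 to 0.981), and Adamts5 had Mtm1, BC003965 and Ndufa2 (0.945 to 0.968). Among pairs of the 10 genes, the highest r was that of Mmp2 and Mmp14 (0.909) and the lowest that of Mmp2 and Adamts5 (-0.64).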
